A study of Danio rerio with 6 samples.

Results

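Collagen genes were followed in regenerating caudal fins of adult zebrafish that had been given the lactate dehydrogenase inhibitor Galloflavin or its solvent DMSO. The genes were taken by symbol, as every row of the deposited table named col, a type number, a and a chain number, which gave 47 of 19822 genes. They were grouped as 15 fibrillar genes (types I, II, V, XI, XXIV and XXVII), 9 basement membrane genes (IV, VII, XV and XVIII), 9 FACIT genes (IX, XII, XIV, XVI and XXII) and 14 other genes (VI, VIII, X, XVII, XXIII and XXVIII). All fish were WT animals of the AB strain, 3 to 12 months old, with males and females in equal number. They were housed at 28 °C and regenerated at 33 °C after the fin was cut 1 or 2 segments below the first ray bifurcation. One group received Galloflavin in DMSO at 0.12 mg per g by intraperitoneal injection, and the other received DMSO alone by the same route. Each library was 1 pool of 10 fins taken 24 h after amputation, so differences between single fish cannot be seen, and it held the regenerate together with 1 bony ray segment of the stump. There were 3 libraries per group, and the labels give every library a batch, B1, B2 or B3, so that a batch held a DMSO and a Galloflavin library, without saying what a batch was.

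A collagen molecule is a triple helix of 3 chains, made from 1, 2 or 3 different genes. Fibrillar collagens pack into the fibrils of skin and bone, type IV collagens form the sheet of the basement membrane, and FACIT collagens sit on the surface of fibrils. Before export, chains are hydroxylated, glycosylated and folded in the endoplasmic reticulum, and after export they are trimmed and crosslinked. In the fin, collagens make the bony rays, the dermis, the membrane under the wound epidermis and, with actinodin proteins, the actinotrichia, which are stiff spicules at the fin margin.

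Read totals over all listed genes ran from 17712157 to 29596335 per library, and both B3 libraries had the lowest. Where a gene is at 0, up to 3 reads remain possible, which is 0.102 to 0.163 on the normalised scale, and this limit covers counting error only. Markers of the fin's tissues were present in every library, with tp63 of the basal epidermis at 442 to 556 normalised counts, prrx1a of the fin mesenchyme at 157 to 189 and sp7 of osteoblasts at 5.75 to 10.5. The 4 skeletal muscle markers found summed to 7.07 to 13.1, with ckma at 0.169 to 1.74, myhz2 at 0.406 to 0.814, actn3b at 0.154 to 0.627 and tnnt3b at 5.48 to 11.4. In bulk RNA such as this, fewer cells of a type and less RNA per cell cannot be told apart. Normalised counts are not divided by gene length, so levels are compared between libraries for 1 gene at a time.

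Of the 47 collagen genes, 41 had a mean normalised count of at least 1 and were tested, namely 14 fibrillar, 8 basement membrane, 6 FACIT and 13 other genes. The 6 below that level were col2a1a, col18a1b, col9a1a, col9a1b, col9a2 and col28a2b, and the last was at 0 in 3 libraries. Over the 6 libraries the coefficient of variation of a tested gene ran from 10.0% to 112%, with a median of 19.2%. The least variable was col4a6, a basement membrane chain, and the most variable was col8a1b, a type VIII chain.

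**Figure D1:**
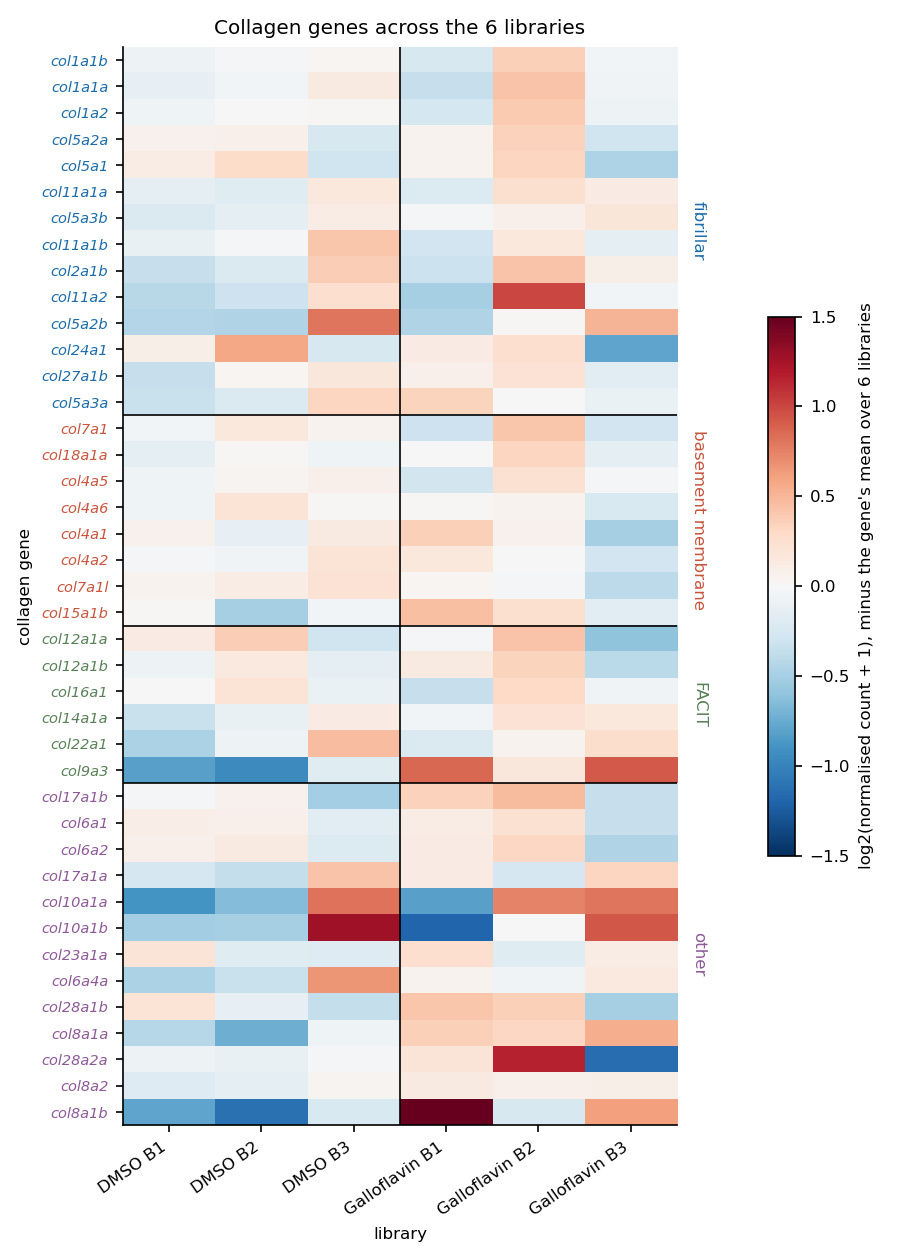
Each row is 1 of the 41 tested collagen genes and each column 1 library, with log2(normalised count + 1) shown minus the gene's mean over the 6 libraries and the colour scale ending at 1.5 in either direction. Galloflavin B2 was the highest of the 6 libraries for 20 of the 41 genes, and col10a1a and col10a1b were higher in both B3 libraries than in the other 4.

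The first question was which collagen genes differ when the inhibitor is given. With limma on log2(normalised count + 1), 0 of 41 collagen genes passed an adjusted p of 0.05, and 0.0% of the 15806 genes tested did. The lowest adjusted p of a collagen gene was 0.602. At an unadjusted p below 0.05, 3 collagen genes were higher with Galloflavin (7.32%, against 4.18% of all genes) and 0 were lower (against 3.03% of all genes). These were col9a3, a FACIT chain that in cartilage sits on type II fibrils, and col8a1a and col8a1b, both chains of the network-forming type VIII collagen. edgeR on the recovered reads also passed 0 collagen genes. It gave 3 at an unadjusted p below 0.05 (7.32%, against 7.21% of all genes in either direction). DESeq2 passed 1 of the 41, col9a3 (2.44%, against 0.525% of all genes). The count at an unadjusted p below 0.05 became 6 without DMSO B3 and 7 without Galloflavin B3, when 9.69% and 9.28% of all genes reached it in either direction.

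The groups did not overlap, with all 3 Galloflavin libraries higher, for col9a3, col8a1a and col8a2 (7.32% of the 41 genes, against 6.97% of all genes). They were apart in the other direction for col7a1l alone (2.44%, against 6.47% of all genes). Seen within batches, 7 collagen genes were higher with Galloflavin in all 3 batches (17.1%, against 17.0% of all genes) and 1 was lower in all 3 (2.44%, against 16.4%). The median log2 fold change of the 41 genes was 0.07, beside -0.004 for all genes. Of the 41 genes 27 were above 0 and 14 below, and of all 15806 genes 7761 were above and 8045 below. By class the median was 0.06 for fibrillar, -0.06 for basement membrane, 0.05 for FACIT and 0.14 for other collagens. Within batches the median of the 41 genes was 0.07 in B1, 0.25 in B2 and -0.18 in B3.

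**Figure D2:**
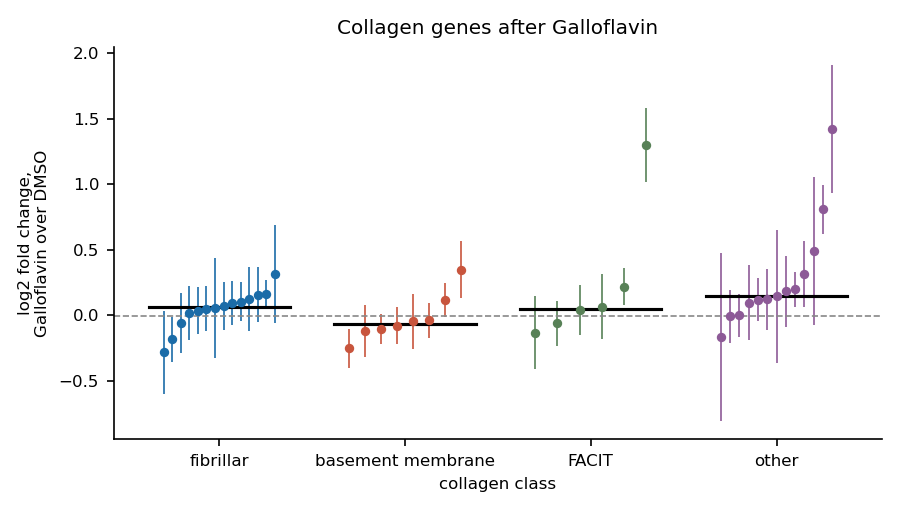
Points are log2 fold changes of Galloflavin over DMSO on the log2(normalised count + 1) scale for the 41 tested collagen genes, by class, with bars of 1 standard error and black lines at the class medians. The 3 points farthest above 0 are col8a1b at 1.42, col9a3 at 1.30 and col8a1a at 0.81.

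Type VIII collagen is a short-chain collagen that forms hexagonal networks, known from the vessel wall and the membrane under the corneal endothelium. Its chain gene col8a1a was at 5.63, 4.37 and 7.53 normalised counts in DMSO B1, B2 and B3, and at 10.4, 10.03 and 11.9 in Galloflavin B1, B2 and B3. Every Galloflavin library lay above every DMSO library, and the mean was 5.84 ± 1.59 (SD, n = 3) with DMSO and 10.8 ± 1.01 (SD, n = 3) with Galloflavin. The log2 fold change was 0.81 ± 0.19 (SE), with an adjusted p of 0.602 in limma. DESeq2 with batch as a block passed it at an adjusted p of 0.0294, and over all alternatives the adjusted p ran from there to 0.9998.

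The second alpha-1 chain gene, col8a1b, was at 0.971, 0.575 and 1.91 normalised counts in DMSO B1, B2 and B3 and at 10.5, 1.88 and 4.23 in Galloflavin B1, B2 and B3. Galloflavin B2 lay just below DMSO B3, so the groups overlapped, and Galloflavin B1 stood far above the other libraries. These values rest on 25, 17 and 36 reads with DMSO and on 273, 48 and 78 with Galloflavin. The log2 fold change was 1.42 ± 0.49 (SE) with a limma adjusted p of 0.644. In DESeq2 its adjusted p was 0.0714. With batch as a block DESeq2 gave col8a1b no adjusted p, and its unadjusted p there was 1.66e-05. The alpha-2 chain gene col8a2 was at 3.30, 3.45 and 4.08 with DMSO and at 4.40, 4.19 and 4.23 with Galloflavin. Its groups were apart by a narrow gap, and the log2 fold change of 0.20 ± 0.13 (SE) did not pass in limma (adjusted p = 0.780). The genes col8a1b and col8a2 are outside the rule for naming genes and were chosen after their values were seen.

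The FACIT gene col9a3 was at 1.28, 1.08 and 2.54 normalised counts in DMSO B1, B2 and B3 and at 6.29, 3.53 and 6.62 in Galloflavin B1, B2 and B3. All 3 Galloflavin libraries were higher than all 3 DMSO libraries, at a low level of 32 to 48 reads with DMSO and 90 to 163 with Galloflavin. Its log2 fold change was 1.30 ± 0.28 (SE). The adjusted p was 0.602 in limma and 0.0119 in DESeq2, and over all alternatives it ran from 0.0119 to 0.9998. With batch as a block DESeq2 gave col9a3 no adjusted p, and its unadjusted p there was 1.4e-06. The other type IX genes col9a1a, col9a1b and col9a2 stayed between 0.117 and 1.01 in all 6 libraries. Of the paralogs for type II collagen, the fibril that type IX decorates in cartilage, col2a1a was at 0.193 to 0.901 and col2a1b at 73.1 to 126. The cartilage markers measured beside col9a3 (9 genes, 4 of them tested) summed to 724 to 1046 with DMSO and to 704 to 1149 with Galloflavin, and most of that sum was hapln1a (380 to 742) and sox9b (286 to 482). The cartilage matrix genes acana (0.0530 to 0.386), acanb (0 to 0.318), matn1 (0.212 to 0.855) and cnmd (0.0772 to 0.488) were close to 0, hapln1b was at 0.194 to 0.814 and ucmaa at 1.00 to 4.34. The cartilage transcription factor genes sox9a and sox9b had log2 fold changes of -0.62 ± 0.13 and 0.29 ± 0.17 (SE), which did not pass in limma (adjusted p = 0.597 and 0.754). For sox9b, Galloflavin B2 alone was at 482, and the other libraries were at 286 to 318. The part of these genes in the values of col9a3 was not tested.

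**Figure D3:**
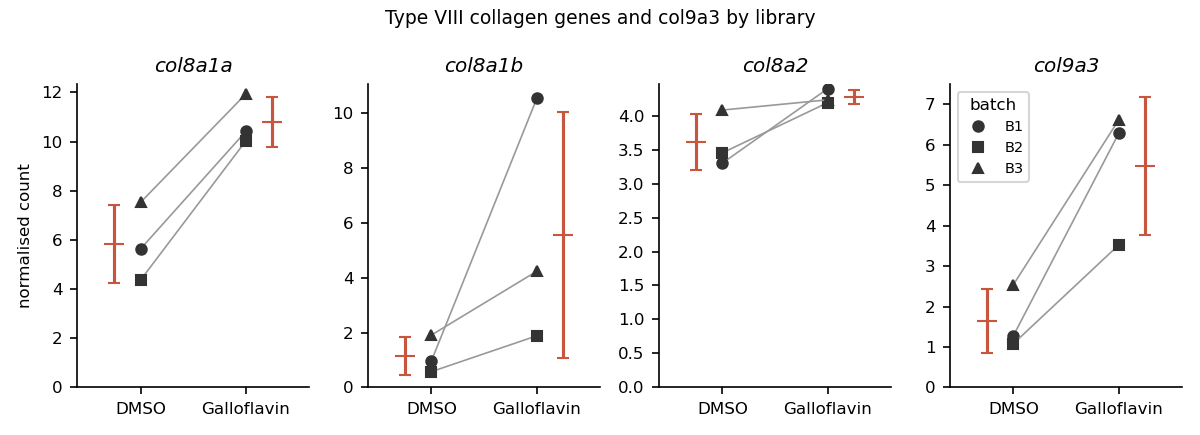
Normalised counts of the 3 type VIII collagen genes and col9a3 are plotted by library, with grey lines joining the libraries of a batch and red bars for the mean ± SD of 3 libraries. For col8a1a the Galloflavin libraries sit between 10.03 and 11.9 and the DMSO libraries between 4.37 and 7.53.

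Type I collagen is the main fibril of bone and dermis, and zebrafish make it from col1a1a, col1a1b and col1a2. The gene col1a1a was at 4451, 4730 and 5315 normalised counts in DMSO B1, B2 and B3 and at 3816, 6513 and 4668 in Galloflavin B1, B2 and B3. For col1a1b the values were 5119, 5256 and 5502 with DMSO and 4537, 6885 and 5250 with Galloflavin, in the same order of batches. The third chain, col1a2, was at 3766, 3926 and 3968 with DMSO and at 3284, 5155 and 3733 with Galloflavin. In all 3 genes Galloflavin B1 was the lowest library and Galloflavin B2 the highest, so that the DMSO values lay inside the Galloflavin range. The log2 fold changes were 0.02 ± 0.21, 0.05 ± 0.17 and 0.04 ± 0.18 (SE) for col1a1a, col1a1b and col1a2, and none of the 3 passed in limma (adjusted p = 0.998, 0.973 and 0.983). How reads shared by col1a1a and col1a1b were counted is not given in the sources used here, so the split between these paralogs is uncertain, as it is for the other paralog pairs.

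Type V collagen joins type I in mixed fibrils and limits their width. Its gene col5a2a was at 1994, 2020 and 1613 normalised counts in DMSO B1, B2 and B3 and at 1991, 2433 and 1554 in Galloflavin B1, B2 and B3. Both B3 libraries were the lowest for this gene, and its log2 fold change of 0.07 ± 0.18 (SE) did not pass. Among the fibrillar genes the lowest p in each direction belonged to col5a3b (log2 fold change 0.16 ± 0.11, SE) and col11a1b (-0.18 ± 0.17, SE), with limma adjusted p of 0.794 and 0.857. The former encodes another type V chain, and the latter a chain of type XI, which forms thin fibrils with type II in cartilage. For col5a3b the range was 129 to 161 with DMSO and 148 to 170 with Galloflavin, and for col11a1b it was 107 to 155 and 94.8 to 129, with overlap in both genes. All 14 tested fibrillar genes had log2 fold changes between -0.28 and 0.31.

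Basement membrane genes had log2 fold changes between -0.25 and 0.35. There were 2 above 0 and 6 below, where 7761 of all 15806 genes were above and 8045 below. The anchoring fibril gene col7a1, whose product ties the membrane of the epidermis to the dermis, was at 1121, 1284 and 1195 normalised counts in DMSO B1, B2 and B3 and at 930, 1528 and 943 in Galloflavin B1, B2 and B3. Galloflavin B2 was the highest and the other 2 Galloflavin libraries were the lowest. At -0.12 ± 0.20 (SE) its log2 fold change did not pass. The related col7a1l was at 9.59, 9.98 and 10.9 with DMSO and at 9.45, 9.05 and 6.78 with Galloflavin. Here the groups did not overlap and each Galloflavin library was below the DMSO library of its batch, with a log2 fold change of -0.25 ± 0.15 (SE) and a limma adjusted p of 0.749.

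Of the type IV chains that make the membrane's network, col4a5 ranged from 199 to 220 normalised counts with DMSO and from 172 to 245 with Galloflavin. The partner chain col4a6 ranged from 76.3 to 92.4 and from 68.1 to 83.1. Neither pair of groups was apart, and the log2 fold changes were -0.04 ± 0.13 and -0.10 ± 0.12 (SE). The multiplexin gene col18a1a, whose C-terminal fragment is endostatin, was at 314 to 350 with DMSO and at 311 to 430 with Galloflavin (log2 fold change 0.12 ± 0.13, SE). Another multiplexin, col15a1b, was at 1.46 to 2.52 with DMSO and 2.12 to 3.74 with Galloflavin. It had the lowest p among the higher basement membrane genes, at a log2 fold change of 0.35 ± 0.22 (SE) and a limma adjusted p of 0.761.

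The FACIT gene col12a1a, whose product links fibrils in dermis, tendon and fascia, was at 1029, 1218 and 767 normalised counts in DMSO B1, B2 and B3 and at 927, 1269 and 622 in Galloflavin B1, B2 and B3. Both B3 libraries were the lowest, and its log2 fold change for Galloflavin of -0.13 ± 0.28 (SE) did not pass. Its paralog col12a1b ranged from 284 to 346 with DMSO and from 236 to 393 with Galloflavin. For col16a1 the ranges were 287 to 355 and 243 to 380, and for col14a1a, whose product binds fibrils beside decorin, 18.9 to 26.3 and 23.4 to 28.2. In these 3 genes the groups overlapped, with log2 fold changes of 0.04 ± 0.19, -0.06 ± 0.17 and 0.22 ± 0.14 (SE).

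Type XVII collagen is a transmembrane protein of the hemidesmosomes of basal keratinocytes. Its gene col17a1b was at 3296, 3474 and 2332 normalised counts in DMSO B1, B2 and B3 and at 4218, 4634 and 2617 in Galloflavin B1, B2 and B3. Galloflavin was higher within each batch, but the groups overlapped across batches, and the log2 fold change of 0.31 ± 0.25 (SE) had a limma adjusted p of 0.823. With batch as a block the unadjusted p of this gene was below 0.05 as well, which brought the count of collagen genes from 3 to 4 (9.76%, against 10.0% of all genes in that fit), and its adjusted p was 0.422. The paralog col17a1a was at 148, 136 and 236 with DMSO and at 191, 147 and 219 with Galloflavin, and its highest libraries were both of B3. Measured beside type XVII, 4 of 11 basal epidermis markers were higher with Galloflavin at an unadjusted p below 0.05 (epcam, cldni, cldn1 and cdh1), where 4.18% of all genes were. The rest of the list (tp63, krt5, krtt1c19e, itga6b, itgb4, krt93 and krt94) did not reach that level. Of the 11 log2 fold changes, 8 were above 0 and 3 below, where 7761 of all 15806 genes were above and 8045 below. None of the 11 passed the adjusted test, and the summed level of the list was 65514 to 97213 with DMSO and 70450 to 102217 with Galloflavin. Their part in the values of col17a1b was not tested.

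Type VI collagen forms beaded filaments around cells. The genes col6a1 and col6a2 had log2 fold changes of -3.3e-05 ± 0.16 and -0.01 ± 0.20 (SE), the nearest to 0 among the other collagens. For col6a1 the normalised count was 424, 415 and 350 in DMSO B1, B2 and B3 and 428, 464 and 310 in Galloflavin B1, B2 and B3. The range of col6a2 was 239 to 302 with DMSO and 201 to 342 with Galloflavin. Type X collagen is made by hypertrophic cartilage cells and in zebrafish also by bone-forming cells. Its gene col10a1b had the lowest p among the lower genes of this class, with a log2 fold change of -0.17 ± 0.64 (SE) and a limma adjusted p of 0.976.

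Within a library, the ratio of 2 chain genes does not depend on the scaling of the library. Of 20 pairs of partner chains or paralogs, 13 had both genes at a mean of at least 1. In 9 of the 13 the standard deviation of the log2 ratio over the 6 libraries was below that of either gene. Counts over these 13 pairs have no share over other gene pairs beside them. The tightest was col1a1b over col1a2, the chains of 1 type I molecule, with a standard deviation of 0.03 against 0.20 and 0.21 for the 2 genes. For col6a1 over col6a2 it was 0.07 against 0.22 and 0.28. Looser than both of their genes were col4a5 over col4a6, at 0.20 against 0.17 and 0.15, and the paralogs col5a2a over col5a2b, at 0.75 against 0.24 and 0.57.

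Groups were apart in 3 of the 13 ratios. The count ratio of col8a1a to col8a2 was 1.71, 1.26 and 1.84 in DMSO B1, B2 and B3 and 2.37, 2.39 and 2.82 in Galloflavin B1, B2 and B3. Between the type X paralogs, col10a1a over col10a1b, it was 1.66, 1.94 and 1.56 with DMSO and 2.82, 3.62 and 1.96 with Galloflavin. For col11a1a over col11a1b it was 1.53, 1.40 and 1.31 with DMSO and 1.65, 1.66 and 1.87 with Galloflavin. All 3 were higher with Galloflavin, each with an exact two-sided permutation p of 0.1, which is the smallest that 20 assignments of 3 against 3 libraries allow, and an adjusted p of 0.433 over the 13 pairs. Without DMSO B3 the groups were apart in 5 ratios.

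One library carried much of the spread in the Galloflavin group. Galloflavin B2 was the highest of the 6 libraries for 20 of the 41 collagen genes (48.8%, against 18.8% of all genes) and the lowest for none of them (against 18.6% of all genes). The summed normalised count of all collagen genes was 33695 in Galloflavin B2 and 23344 to 26477 in the other 5 libraries. It was 1.35-fold over the median of those 5, and for the sums of the 4 classes the ratio lay between 1.32 and 1.38. Genes of high count weigh most in such sums. In Galloflavin B2, col7a1 made 1528 of 2370 for basement membrane and col17a1b made 4634 of 5964 for other collagens. By gene the ratio was 1.36 for col7a1 and 1.41 for col17a1b. It was 1.00 for col4a1, 1.03 for col4a2 and col4a6, 0.94 for col7a1l and 0.77 for col17a1a. The sum of all collagen genes was 25523 ± 828 (SD, n = 3) with DMSO and 26999 ± 5807 (SD, n = 3) with Galloflavin. The Galloflavin mean without B2 was 23651. Thus the Galloflavin group mean lay above the DMSO mean with this library and below it without. Without it the median log2 fold change was -0.10 for fibrillar, -0.13 for basement membrane, -0.03 for FACIT and 0.15 for other collagens. By class the Galloflavin mean sum without B2 was below the DMSO mean for the first 3, at 16111 against 17788, 1608 against 1909 and 1376 against 1665, and above it for the other collagens, at 4556 against 4161. The folds over the median of the other 5 libraries were largest for col10a1a at 2.65, col28a2a at 2.60 and col11a2 at 2.55, named here for that order. For col10a1a Galloflavin B2 was still not the highest library, at 243 against 256 in DMSO B3 and 254 in Galloflavin B3.

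Genes whose products make, fold and crosslink collagen were examined beside the collagens. Of 42 tested, 0 passed for Galloflavin in limma. At an unadjusted p below 0.05, where 4.18% of all genes were higher and 3.03% lower, 1 was higher and 0 lower. The higher gene was loxl4, a crosslinking lysyl oxidase (log2 fold change 0.39 ± 0.16, SE). Its normalised counts were 9.40 in Galloflavin B2 and 6.40 to 12.0 in the other 5 libraries. Another identifier in the list, named LOXL4, was at 84.3 in Galloflavin B2 and 41.1 to 53.5 in the other 5. That identifier did not reach an unadjusted p below 0.05. The second lowest p was that of pcolceb, an enhancer of procollagen trimming (0.25 ± 0.14, SE). The list's median log2 fold change was 0.11, beside -0.004 for all genes. Galloflavin B2 was the highest library for 30 of the 42 (71.4%, against 18.8% of all genes). The prolyl 4-hydroxylase gene p4ha1b was at 59.5, 23.7 and 19.9 normalised counts in DMSO B1, B2 and B3 and at 34.4, 250.4 and 11.5 in Galloflavin B1, B2 and B3. Galloflavin B2 stood alone here, at 10.6-fold over the median of the other 5. The same ratio was 5.03 for the lysyl hydroxylase gene plod1a, 3.38 for the prolyl hydroxylase gene p4ha2, 2.77 for serpinh1b, which encodes the collagen chaperone Hsp47, and 2.61 for loxl2a. These 5 genes were chosen after their values were seen. The log2 fold change of p4ha1b was 0.61 ± 1.01 (SE), smaller than its error.

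Galloflavin B2 had the second highest read total, 27903337, and the highest sum of deposited values over all genes, 1093130 against 938945 to 1006709. Marker sums in it were 102217 for basal epidermis (65514 to 97213 in the other 5), 18688 for mesenchyme and blastema (14035 to 19633), 210 for osteoblasts (217 to 285) and 13.1 for muscle (7.07 to 8.80). Their part in the collagen values was not tested.

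**Figure D4:**
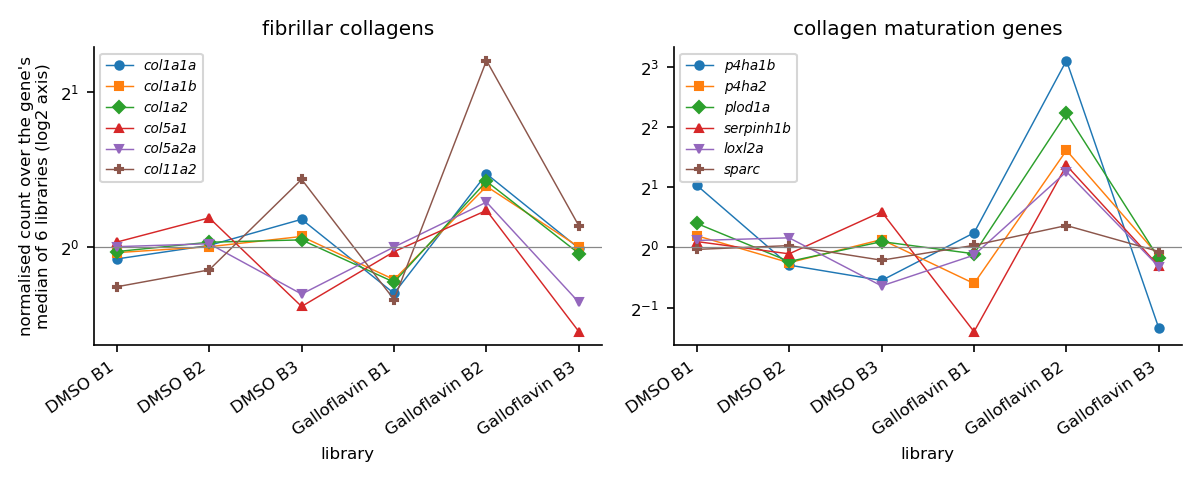
Normalised counts of 6 fibrillar collagen genes (left) and 6 collagen maturation genes (right) are drawn by library over the gene's median of the 6 libraries, on log2 axes with different ranges. The highest point of each of the 12 genes is in Galloflavin B2, and among the maturation genes p4ha1b reaches the highest ratio. The 12 genes were picked for display, and not all genes of either set peak there. Of the tested maturation genes 30 of 42 do, and the fibrillar gene col5a2b is at 26.0 in Galloflavin B2 and at up to 45.5 in the other libraries.

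The batches were compared with an F test in limma with treatment as a covariate, since each batch held 1 library of each group. At an unadjusted p below 0.05, 16 of the 41 collagen genes differed between batches (39.0%, against 12.6% of all genes). With limma 0 collagen genes passed the adjusted test (lowest adjusted p 0.130), and 0.0316% of all genes did. edgeR passed 0 and gave 16 at an unadjusted p below 0.05 (39.0%, against 11.9% of all genes in that fit). DESeq2 passed 7 collagen genes (17.1%, against 2.72% of all genes), of which col10a1b, col5a2b and col17a1a were higher in B3 and col12a1a, col17a1b, col24a1 and col5a1 were lower. Leaving out 1 library left its batch with a single library, whose own deviation would then count as a batch difference. Counts of genes passing in such fits are therefore not given.

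Both B3 libraries lay above the other 4 for 7 of the 41 tested collagen genes (17.1%, against 12.0% of all genes) and below them for 9 (22.0%, against 16.2% of all genes). The gene col10a1b was at 46.6, 47.3 and 164 normalised counts in DMSO B1, B2 and B3 and at 29.1, 67.1 and 130 in Galloflavin B1, B2 and B3. Its mean in B3 was 3.09-fold that in the other batches. The paralog col10a1a was at 77.6, 91.7 and 256 with DMSO and at 81.8, 243 and 254 with Galloflavin, where Galloflavin B2 came close to the B3 libraries. The type V gene col5a2b was at 18.6, 18.4 and 45.5 with DMSO and at 18.4, 26.0 and 37.0 with Galloflavin, 2.02-fold higher in B3. The remaining 4 of the 7 were col17a1a, col22a1, col6a4a and col5a3b.

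In the other direction, the means in B3 were 62.5% of those in the other batches for col12a1a, 63.4% for col17a1b, 67.2% for col5a1 and 57.4% for col24a1. The type V gene col5a1 was at 1327, 1479 and 995 normalised counts in DMSO B1, B2 and B3 and at 1271, 1529 and 889 in Galloflavin B1, B2 and B3, with both B3 libraries below the rest. The short-domain fibrillar gene col24a1 was at 23.9, 34.2 and 18.9 with DMSO and at 24.5, 26.9 and 12.5 with Galloflavin. Also below were col12a1b, col5a2a, col6a1, col6a2 and col28a1b. Among the paralogs 2 pairs were split, with col17a1a above and col17a1b below in B3, and col5a2b above and col5a2a below, while col10a1a and col10a1b were both above and col12a1a and col12a1b both below. The count ratio of col5a2a to col5a2b was 35.5 and 42.1 in the B3 libraries and 93.5 to 110 in the other 4. In 6 of the 13 ratios both B3 libraries lay above, or both below, the other 4. Among all single genes 12.0% lay above and 16.2% below in this way. The share over other gene pairs was not taken, and some of the 13 pairs share a gene.

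Mean shifts of B3 against B1 and B2 exceeded 0.5 on the log2 scale in either direction for 13 of the 41 collagen genes (31.7%, against 11.4% of all genes). The shift had the same sign in the DMSO and the Galloflavin group for 26 of the 41 (63.4%, against 64.6% of all genes). The actinodin gene and1, a component of the actinotrichia, was at 42.6, 62.0 and 150.5 normalised counts in DMSO B1, B2 and B3 and at 21.3, 58.5 and 123 in Galloflavin B1, B2 and B3. Thus and1 was highest in both B3 libraries. Its relative and2 was at 0.427 to 6.20 over the 6 libraries and and3 at 0.109 to 0.470, and neither of the tested actinodins, and1 or and2, passed for Galloflavin.

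**Figure D5:**
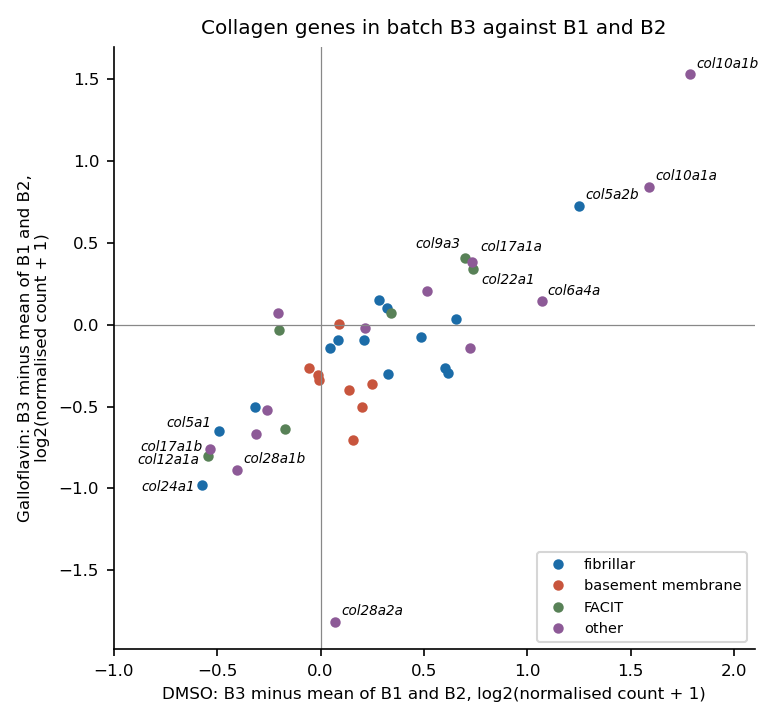
Each point is 1 of the 41 tested collagen genes, with the difference of B3 from the mean of B1 and B2 on log2(normalised count + 1) in the DMSO libraries (x axis) and in the Galloflavin libraries (y axis), and names for genes whose mean shift exceeds 0.5. The type X genes and col5a2b lie in the upper right, and col24a1, col12a1a, col17a1b and col5a1 in the lower left.

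Cell type markers were also read by batch. The summed osteoblast markers (12 genes) were at 259 and 285 normalised counts in B3 and at 210 to 233 in the other 4 libraries, with spp1 alone at 140 and 183 in B3 and at 99.7 to 133 in the others. By gene, both B3 libraries were above the other 4 for 3 of the 11 tested and below for 2. These were 27.3% and 18.2%, against 12.0% and 16.2% of all genes. For mesenchyme and blastema markers (20 genes) the sum was 14035 and 14905 in B3 and 17508 to 19633 in the others, and most of it was the fibronectin gene fn1b (10656 to 14674). The other fibronectin gene, fn1a, was at 878 and 982 in B3 and at 2460 to 2596 elsewhere. By gene the list did not follow its sum, with both B3 libraries above for 4 of the 19 tested and below for 2. These were 21.1% and 10.5%, against 12.0% and 16.2% of all genes. DMSO B3 was the highest library for 12 of the 19, against 15.7% of all genes. The basal epidermis sum (11 genes) was 65514 and 70450 in B3 and 75788 to 102217 in the others, most of it krt5 (51797 to 70772). Of its 11 genes 1 was above in both B3 libraries and 2 were below (9.09% and 18.2%, against 12.0% and 16.2% of all genes). Of these lists, mesenchyme and blastema had 1 gene that passed the adjusted batch test in limma, fn1a, and the other 2 had 0. The part of these markers and of the lower read totals of B3 in the collagen values was not tested. In B3, 17 of the 42 maturation genes lay below the other 4 libraries (40.5%, against 16.2% of all genes) and 1 above.

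Of the genes for proteins that bind or cut collagen, 0 passed for Galloflavin in limma. At an unadjusted p below 0.05, 4.18% of all genes were higher and 3.03% lower. Of 15 tested collagen receptor genes 0 reached an unadjusted p below 0.05 (median log2 fold change 0.07), and the lowest p were those of the integrin genes itga2.2 (0.62 ± 0.39, SE) and itga2.3 (0.46 ± 0.30, SE). Among 9 small leucine-rich proteoglycans, which coat fibrils, the median was -0.01. Here dcn, encoding decorin, reached an unadjusted p below 0.05 at a log2 fold change of 0.30 ± 0.12 (SE), with 201 to 215 normalised counts with DMSO and 222 to 295 with Galloflavin, and bgnb was at -0.25 ± 0.22 (SE). Among 8 collagen-cleaving proteases 0 reached that level (median 0.09), and the lowest p belonged to mmp13b (0.34 ± 0.16, SE) and mmp14a (0.14 ± 0.10, SE). Of 21 non-collagen basement membrane genes 1 did (median 0.08), the laminin gene lamc3 (0.45 ± 0.18, SE), with nid1a next at 0.23 ± 0.10 (SE).

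The remaining marker lists had 0 genes at an adjusted p of 0.05 for Galloflavin in limma. At an unadjusted p below 0.05, where 4.18% of all genes were higher and 3.03% lower, higher and lower genes numbered 0 and 1 of 11 osteoblast markers, 0 and 3 of 19 mesenchyme and blastema markers, 0 and 1 of 4 cartilage markers, 2 and 0 of 6 neutrophil markers and 1 and 2 of 7 macrophage markers. For 7 endothelial, 1 muscle, 8 pigment cell and 4 Schwann cell markers both numbers were 0. The osteoblast gene was sp7, at a log2 fold change of -0.39 ± 0.16 (SE).

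Collagen identifiers outside the symbol rule numbered 8, of which 6 had no deposited symbol. Among them COL6A3, the third type VI chain, was at 644 to 653 normalised counts with DMSO and 543 to 776 with Galloflavin, again with Galloflavin B2 the highest. A second identifier named col24a1 in the gene name table was at 21.4 to 31.7 with DMSO and 14.1 to 32.6 with Galloflavin, close to the deposited col24a1 (18.9 to 34.2 and 12.5 to 26.9), so reads may be split between the 2 identifiers. A second identifier named col7a1l was at 0.434 to 1.12 over the 6 libraries.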

How the data were processed

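Poly(A) RNA was sequenced from pools of fins, per the labels' protocols with a stranded kit. Per the submitters' processing notes, alignment was to GRCz11 with STAR 2.7.10a. How reads were counted, with which annotation, and how counts were normalised is not given in the sources used here. What the authors deposited as signal is a normalised count per gene, 1 column per library and none pooled. Each column held whole multiples of 1 value, so that reads were recovered for 100% of values within 0.01 of a read. TMM-scaled counts were 0.997 to 1.005 times the deposited values.

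In R 4.3.3, limma 3.58.1 (mean trend, two-sided, Benjamini-Hochberg) was run on log2(value + 1) of all 15806 genes with a mean of at least 1. Fold changes are on that scale, which understates those of low genes. edgeR 4.0.16 and DESeq2 1.42.0 were run on the recovered reads as alternatives, beside a pseudocount of 0.5 or 5, a minimum mean of 5 or none, scaling by upper quartile or median of ratios, libraries left out, and batch as a block. Replicates are separate pools of fins. Batch labels pair the libraries. Deviations from group means correlated within B1, B2 and B3 at 0.10, 0.08 and 0.49, and across batches at -0.39 to 0.38. DMSO B1 with Galloflavin B2 gave 0.24 and DMSO B2 with Galloflavin B1 gave 0.38. Both were above the values within B1 and B2.

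On simulated counts with 200 of 15806 genes changed, the limma test of Galloflavin recovered 6.5% of 1.5-fold, 66.5% of 2-fold and 92.5% of 4-fold changes, with 6 false calls each. The batch test recovered 5%, 54% and 98.5%, with 37, 18 and 18 false calls. With 1.5-fold changes, 13 true calls stood beside 6 false ones for Galloflavin and 10 beside 37 for the batches. In that simulated set the share of false calls was above the adjusted p cutoff of 0.05 in both tests. For the batch test it was also above the cutoff with 2-fold changes, at 18 false beside 108 true calls. The same held with 4-fold changes, at 18 beside 197. The simulated spread was estimated with batch and treatment fitted, and only 200 genes were given a batch shift. In the real libraries 12.6% of genes differed between batches at an unadjusted p below 0.05 in limma. The recovery given for Galloflavin, tested without a block, may therefore be too high for the real libraries.

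Members, lists and tests were chosen with earlier results of these data known. Named were, per class, the 4 genes of highest mean count and the lowest p in each direction, any gene that passed, chain pairs whose log2 ratio differed by over 0.5 in all 3 batches, the actinodins and the 2 lowest p of each other list. Among these, genes of the marker lists are given by counts except where a result touches them. Names given under the batches and Galloflavin B2 lie in part outside this rule and were chosen after their values were seen.

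A gene name table supplied symbols for 1485 of the 2175 identifiers that had none. No genome of the files' build was used here, so no coordinates or sequences are given.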

Additional observations from a re-analysis of the deposited data

How the results depend on the processing

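For Galloflavin, genes passing an adjusted p of 0.05 numbered 0 in limma under every scaling, filter and pseudocount tried, in edgeR and with batch as a block, against 83 with DESeq2 and 146 with DESeq2 and the block. Among collagen genes 1 passed in each DESeq2 fit, col9a3 without the block and col8a1a with it. With the block, col9a3, col8a1b, col8a2 and col15a1b were given no adjusted p. At an unadjusted p below 0.05, a minimum mean of 5 left 1 of the 3 collagen genes, since col9a3 and col8a1b fall under it, and the block gave 4. With single libraries or whole batches left out, these 3 counts ran from 0 to 1, 0 to 0 and 2 to 7. For the batches, the count over all genes was 5, and 1 with a pseudocount of 5, 8 with no filter, 0 with a minimum mean of 5, 0 in edgeR and 430 in DESeq2, with 0 to 301 as libraries were left out. Collagen genes passing it numbered 7 in DESeq2 and 0 to 3 with libraries left out, and those at an unadjusted p below 0.05 numbered 10 to 25. Chain ratios with groups apart numbered 3 with all libraries and 3 to 5 with libraries left out. With batch as a block another count was taken, of ratios that differed in 1 direction in all 3 batches. It was 5, and the smallest p that flipping the signs of 3 batch differences allows is 0.25.

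Of 456 alternative values of 23 named collagen genes, 408 kept direction and side, 46 in 15 genes changed sign and 2 newly passed. Sign changes outside left-out libraries were col1a1a at -0.0030 with upper-quartile scaling; col6a1 at 0.0001 with a pseudocount of 5, 0.0008 with median-of-ratios scaling, 0.0135 in edgeR, 0.0164 in DESeq2 and 0.0005 in DESeq2 with the block; and col6a2 at 0.0171 in edgeR and 0.0199 in DESeq2. With libraries left out, log2 fold changes ranged from -0.6789 to 0.4268 for col10a1b, -0.3667 to 0.0016 for col11a1b, -0.3783 to 0.1355 for col12a1a, -0.116 to 0.2518 for col12a1b, -0.2284 to 0.0937 for col16a1, -0.0272 to 0.3662 for col17a1a, -0.0124 to 0.2211 for col18a1a, -0.2045 to 0.1944 for col1a1a, -0.1207 to 0.1846 for col1a1b, -0.1503 to 0.175 for col1a2, -0.1639 to 0.0896 for col4a5, -0.085 to 0.2382 for col5a2a, -0.1162 to 0.1744 for col6a1, -0.1659 to 0.2138 for col6a2 and -0.3554 to 0.0025 for col7a1. The cause was not tested. With 3 libraries a group, changes near 1.5-fold were mostly beyond reach in the simulated counts.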
